A study of Mus musculus with 6 samples.

Results

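Long noncoding RNAs (lncRNAs) of neurons were examined in the hippocampus of mice lacking p300 in excitatory neurons. The 8 genes Meg3, Rian, Mirg, Malat1, Neat1, Miat, Snhg11 and Peg13 were chosen by name as abundant neuronal lncRNAs, and all 8 were found by their Ensembl identifier among the 55471 genes of the deposited table. RNA-seq was performed on total RNA from the hippocampus of C57BL/6 mice (C57BL/6J in the methods of the study) aged 3 to 6 months, with 3 p300-ifKO mice, 3 control littermates and 1 library per mouse. An ifKO (inducible forebrain knockout) carries a floxed gene, here Ep300, and Camk2a_creERT2, a tamoxifen-dependent Cre recombinase that the Camk2a driver places in excitatory forebrain neurons. All mice of both groups received 5 administrations of tamoxifen. The design text describes controls as littermates lacking creERT2, but Camk2a_creERT2 stands in the descriptions of the control libraries. Recombination was directed at excitatory neurons only, so the tissue of a p300-ifKO mouse still held interneurons, glia and vascular cells with intact Ep300.

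A lncRNA is transcribed and often spliced like a messenger RNA but is not used as a template for protein. Meg3, Rian and Mirg lie one after another on the maternal copy of the imprinted Dlk1-Dio3 domain, and their transcripts are the source of many small nucleolar RNAs (snoRNAs) and miRNAs. Malat1 and Neat1 are neighbours whose RNAs stay in the nucleus: Malat1 gathers in nuclear speckles, which store splicing factors, and Neat1 forms the scaffold of paraspeckles. Miat (also called Gomafu) forms separate nuclear foci in neurons, Snhg11 is a snoRNA host gene, and Peg13 is a paternally expressed RNA of the imprinted Peg13-Kcnk9 domain. p300 and its paralogue CBP acetylate histones and are recruited by transcription factors such as CREB.

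Libraries held between 23151568 and 28433823 counts. The targeted gene was not called: Ep300 had 1545, 1474 and 2334 normalized counts (counts divided by the DESeq2 size factor of the library) in control mice and 478, 1350 and 912 in p300-ifKO mice. Its groups did not overlap, with p300-ifKO lower, as in 3.37% of the 17071 genes with a mean of at least 10 normalized counts. The log2 fold change of −0.97 (SE 0.33) carried an adjusted p of 0.991 in DESeq2. Summed markers of excitatory neurons lay between 143671 and 165463 normalized counts in controls and between 146129 and 169302 in p300-ifKO libraries, with 0 of 8 markers at 0 in any library. Libraries also differed in a trend with gene length, which is described beside the members it touches. Ep300 itself has 14273 bases of exon, and the part of that trend in its level was not tested. In bulk tissue, fewer cells of a type and less RNA per cell cannot be told apart.

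The members differed widely in level. Levels of different genes were compared per kilobase of exon, taken over all annotated exons of a gene. Snhg11 had 8253 ± 765 (SD, n = 6) normalized counts per kb and Meg3 had 6351 ± 1242 (SD, n = 6). Next came Miat with 2301 ± 347, Malat1 with 1334 ± 618 and Peg13 with 1319 ± 128 (SD, n = 6 each). Rian had 418 ± 82.2, Neat1 205 ± 14.4 and Mirg 110 ± 9.95 normalized counts per kb (SD, n = 6 each). The ranges over the 6 libraries overlapped for 3 pairs of neighbours in this order. Snhg11 nonetheless exceeded Meg3 in 6 of 6 libraries, by a factor of 1.14 to 1.57, and Miat exceeded Malat1 in 5 of 6. Malat1 exceeded Peg13 in 1 of 6 libraries, control replicate 3, so that their order rested on that library. The other 4 neighbouring pairs did not overlap. For some members this length exceeds the longest annotated transcript, which has 8089 bases for Rian and 3822 for Mirg. It has 14548 for Meg3 and 5864 for Snhg11. The order and the overlaps thus hold for the summed exons only, and levels per transcript length were not computed.

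**Figure D1:**
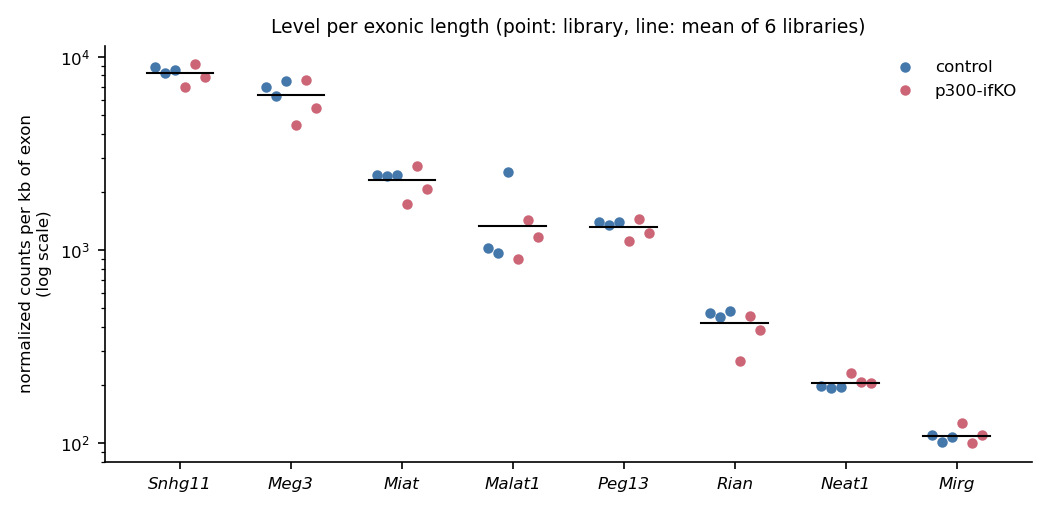
Level of each lncRNA in normalized counts per kilobase of exon (log axis), with 1 point per library and a line at the mean of 6 libraries. Snhg11 and Meg3 stand highest at 8253 and 6351, Mirg lowest at 110, and a single control library sets Malat1 at 2536.

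Together the 8 genes took 51.2 ± 4.02% (SD, n = 6) of the counts of 9915 genes, those typed as lncRNAs in the annotation with Snhg11 added to them, of which 6202 had at least 1 count. They took between 0.729% and 1.11% of all counts of a library. By normalized counts, Meg3 ranked 1, Snhg11 2, Miat 3 and Rian 4 among these genes, followed by Malat1 at 7, Peg13 at 10, Neat1 at 12 and Mirg at 54. By counts, 7 of the members were thus within the first 12 of these genes. Per kb, among genes with a mean of at least 10 normalized counts, Rian lay at percentile 82.6, Neat1 at 67.0 and Mirg at 51.9. The remaining members lay at percentile 95.6 or above. The members were chosen as abundant with earlier results of these data known, so these ranks do not check that label. The share was lowest in p300-ifKO replicate 1 (44.1%) and highest in p300-ifKO replicate 2 (55.1%), with the 3 control libraries between 51.4% and 54.1%.

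The question put to each lncRNA was whether its level changed when Ep300 was targeted. In DESeq2, 0 of the 8 members had an adjusted p under 0.05, where 0.0061% of the 32773 genes tested were called, and 0 of 8 had an unadjusted p under 0.05, where 1.32% of genes did. The edgeR quasi-likelihood test called 0 of 8 as well, where it called 0.0117% of 17131 genes, with 0 at an unadjusted p under 0.05. Adjusted p was 0.991 for each member in DESeq2. Only Neat1 had groups that did not overlap, with 3 of 3 p300-ifKO libraries above all controls, a pattern found in 4.09% of the 17071 genes with a mean of at least 10 normalized counts. No member had the opposite pattern, found in 3.37% of these genes. In 3 against 3 libraries an exact permutation test cannot give a p below 0.1, so that no single gene could pass 0.05 by permutation alone.

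**Figure D2:**
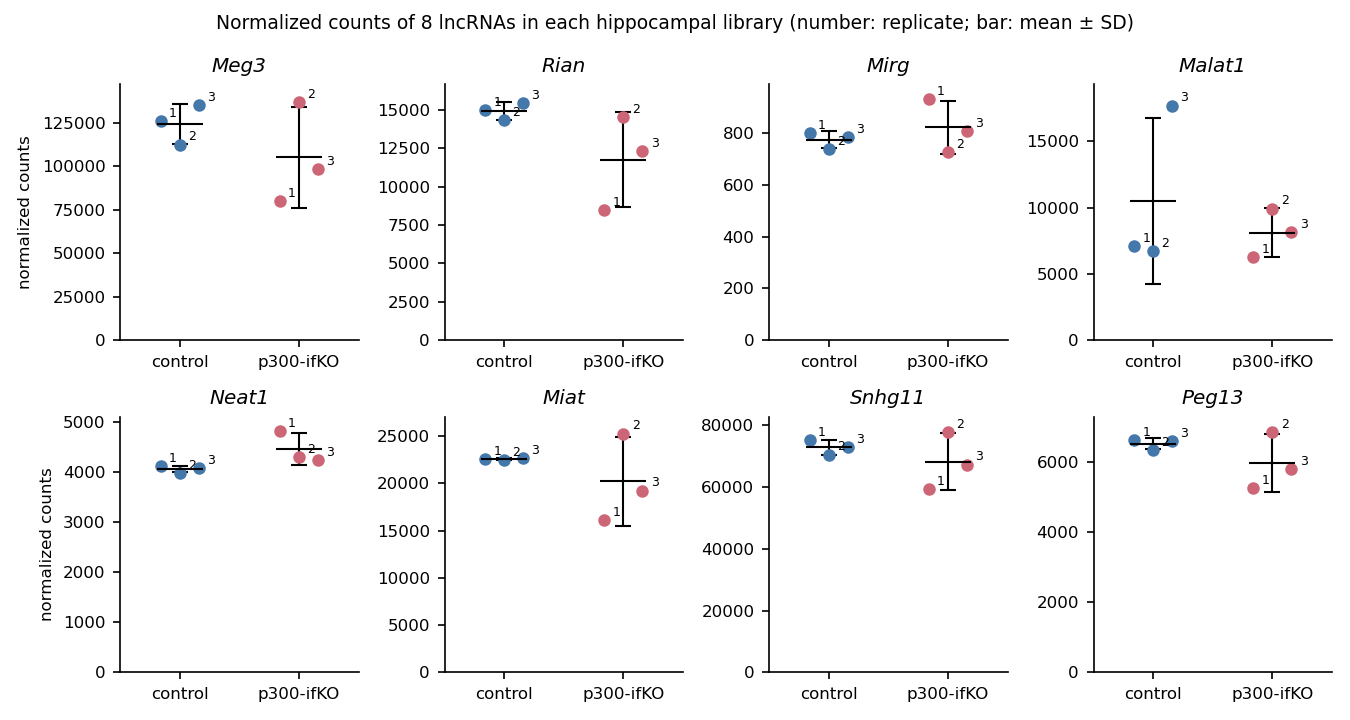
Normalized counts (axes from 0) of each lncRNA in 3 control and 3 p300-ifKO libraries, with replicate numbers beside the points and bars for the mean ± SD of 3 mice. The p300-ifKO points overlap the control points in 7 panels and lie above them in the panel of Neat1, at 4827, 4303 and 4248 against 4125, 3992 and 4079.

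Meg3 (ENSMUSG00000021268, chr12:109541001-109571726 on the plus strand of GRCm38, 18089 bases of exon) comes before Rian and Mirg in its domain and is a tumour suppressor RNA in other tissues. It had 125987, 112570 and 135166 normalized counts in control mice and 79960, 137137 and 98498 in p300-ifKO mice. Replicates 1 and 3 of p300-ifKO lay below all controls and replicate 2 above them, so that the groups overlapped. Means were 124574 ± 11364 and 105198 ± 29171 (SD, n = 3), a log2 fold change of −0.24 (SE 0.21, 95% interval −0.65 to 0.16, unadjusted p 0.237 in DESeq2).

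The Meg3 promoter is shown because it holds the only full cAMP response element among the promoters found for 6 of the 8 members, the element bound by CREB. The sequence is from RefSeq, GRCm38.p6, chr12:109540746-109541045 on the plus strand, 250 bases before to 50 after the start. Capitals mark the element TGACGTCA, whose first base is 57 bases before the start, and a stretch with TATAAA on both strands.
Meg3 promoter: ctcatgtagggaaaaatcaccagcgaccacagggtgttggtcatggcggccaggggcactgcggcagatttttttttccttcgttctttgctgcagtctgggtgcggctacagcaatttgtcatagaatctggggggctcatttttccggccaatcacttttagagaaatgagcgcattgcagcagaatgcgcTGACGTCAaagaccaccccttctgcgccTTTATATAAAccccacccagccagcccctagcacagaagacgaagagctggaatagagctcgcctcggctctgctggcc
Searched on both strands, TGACGTCA was present in 588 of 32851 promoters of the same length (1.79%) and TATAAA in 13.6%. A second RefSeq start of Meg3 had neither. A match is a match of letters and says nothing of binding in these mice.

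Rian (ENSMUSG00000097451, chr12:109603940-109661716, plus strand, 31981 bases of exon in the deposited table) hosts 13 annotated snoRNA genes. Its normalized counts were 15022, 14336 and 15478 in controls and 8479, 14543 and 12307 in p300-ifKO mice. The pattern resembled that of Meg3, with p300-ifKO replicates 1 and 3 below all controls and replicate 2 within them. Rian had the log2 fold change with the smallest unadjusted p of the members, −0.34 (SE 0.20, 95% interval −0.74 to 0.05, unadjusted p 0.0855 in DESeq2). Without p300-ifKO replicate 2, DESeq2 called 926 genes in all, 7.9% of the 11726 tested, and with them Rian (−0.52, SE 0.16, adjusted p 0.0331) and Meg3 (−0.48, SE 0.14, adjusted p 0.0267). Without p300-ifKO replicate 1, Rian had −0.16 and Meg3 −0.082. Leaving out any other single library than p300-ifKO replicate 2, DESeq2 called 0 of the 8 members.

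Mirg (ENSMUSG00000097391, chr12:109729764-109749460, plus strand, 7292 bases of exon) spans 14 annotated miRNA genes. Unlike Meg3 and Rian it had similar values in both groups, 802, 740 and 786 normalized counts in controls and 931, 728 and 810 in p300-ifKO mice. The highest and the lowest value both came from p300-ifKO mice. On the log2 scale the fold change was 0.08 (SE 0.15, 95% interval −0.20 to 0.37, unadjusted p 0.563 in DESeq2). The miRNA genes inside Mirg received 240 counts in all over the 6 libraries, in 8 of the 14 genes. Mature miRNAs are shorter than the 50 bp reads and were not measured here.

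Hairpins of 5 miRNA genes lie largely in Mirg exons, with 58 to 81 bases shared, so that reads of the host transcript could fall on both genes. One mature form of each is printed to show what the transcript carries, from RefSeq on GRCm38.p6, 5′ to 3′, with the seed (bases 2 to 8) in capitals. These 5 have different seeds. The 2 forms after them were the only ones of the 35 mature miRNAs inside Meg3, Rian and Mirg to share a seed.
miR-134-5p: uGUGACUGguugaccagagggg
miR-485-3p: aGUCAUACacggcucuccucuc
miR-410-3p: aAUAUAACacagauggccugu
miR-377-3p: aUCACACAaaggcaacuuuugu
miR-3072-5p: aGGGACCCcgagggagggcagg
miR-453: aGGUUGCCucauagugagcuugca
miR-496a-5p: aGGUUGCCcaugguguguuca

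Other genes of the Dlk1-Dio3 domain and its borders were read as a list of 117, of which 12 had a mean of at least 10 normalized counts. DESeq2 called 0 of them, with 2 at an unadjusted p under 0.05, and 5 of the 12 had a positive and 7 a negative log2 fold change. Their median was −0.018, beside −0.0051 over all genes with that mean, and −0.12 without p300-ifKO replicate 2. Both genes under 0.05 were protein-coding and paternally expressed, and were named after their values were seen. Dlk1, a Notch-like transmembrane protein, had 392 ± 103 normalized counts in controls and 270 ± 72.0 in p300-ifKO mice (SD, n = 3), a log2 fold change of −0.54 (SE 0.27). Dio3, which inactivates thyroid hormone, had 144 ± 30.3 and 96.7 ± 26.9 (SD, n = 3), a log2 fold change of −0.57 (SE 0.28). In both, the groups overlapped.

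The largest fold changes among these 12 belonged to lowly expressed lncRNAs, B830012L14Rik with −1.18 (SE 0.79) and Dio3os with −0.88 (SE 0.55) on the log2 scale. B830012L14Rik had 6.96, 7.35 and 37.8 normalized counts in controls and 6.44, 8.84 and 7.72 in p300-ifKO mice. Control replicate 3 alone stood high, and without it the log2 fold change was 0.11. The most abundant genes lay outside the imprinted domain. Ppp2r5c, a phosphatase subunit, had a log2 fold change of 0.03 (SE 0.11) and Begain, a postsynaptic protein gene, of 0.23 (SE 0.15). Rtl1, which lies 48 kb from the start of Meg3 and is read from the other chromosome copy, had 0.0049 (SE 0.18).

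**Figure D3:**
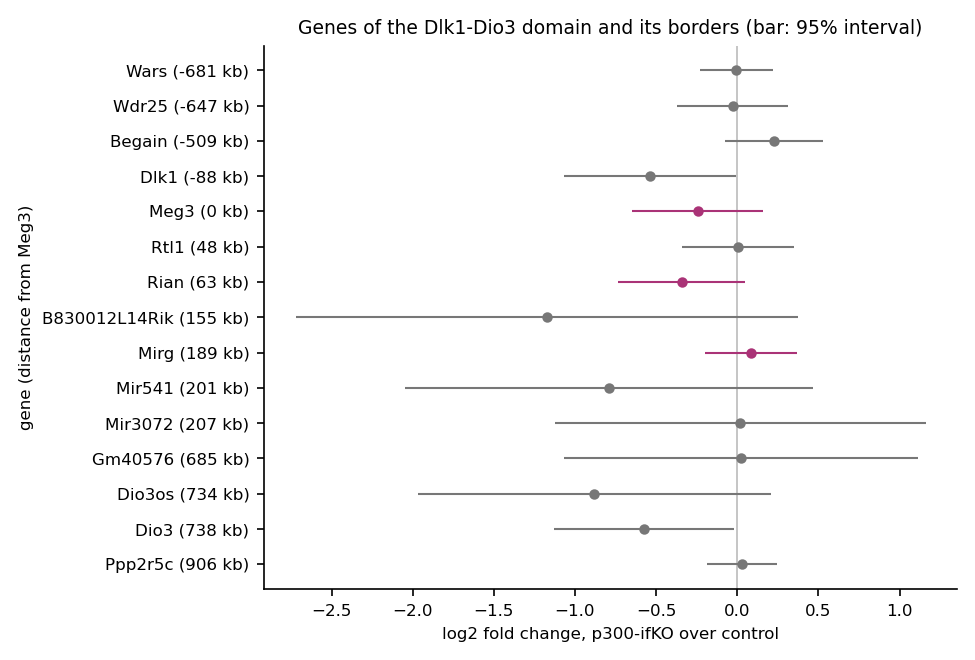
DESeq2 log2 fold change of p300-ifKO over control for the 15 genes of the domain and its borders with a mean of at least 10 normalized counts, Meg3, Rian and Mirg in colour, in the order of their position with the distance from Meg3 in kb and bars for the 95% interval. Dlk1 (−0.54), Meg3 (−0.24), Rian (−0.34) and Dio3 (−0.57) lie left of 0, as do B830012L14Rik (−1.18), Mir541 (−0.79) and Dio3os (−0.88). Only the intervals of Dlk1 and Dio3 exclude 0. Mirg (0.08), Rtl1, Mir3072 and Gm40576 lie near 0, as do the border genes Wars, Wdr25 and Ppp2r5c. The border gene Begain (0.23) lies right of 0.

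Malat1 (ENSMUSG00000092341, chr19:5795690-5802672, minus strand, 6983 bases of exon) varied most. It had 7112, 6713 and 17706 normalized counts in control mice and 6285, 9929 and 8134 in p300-ifKO mice. Control replicate 3 was 2.82 times as high as the lowest library, and the other 5 libraries lay between 6285 and 9929. The control coefficient of variation was 59.3%, exceeded by 0.122% of the 8195 genes with a mean of at least 500. With all libraries the log2 fold change was −0.37 (SE 0.53, 95% interval −1.41 to 0.66, unadjusted p 0.480 in DESeq2), and without control replicate 3 it was 0.23. Without p300-ifKO replicate 1 it was −0.22. The direction thus turned when control replicate 3 was left out.

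The end of Malat1 is printed because it differs from that of a usual transcript: the long RNA is cut just after a genomically encoded run of A and ends in a triple helix in place of a poly(A) tail, while the piece cut off folds like a transfer RNA. How poly(A) RNA was handled in these libraries is not given in the sources used here. The sequence is from GENCODE transcripts on GRCm38, chr19:5795913-5796069, minus strand, with the run of 12 A in capitals, after which 298 bases of the annotated transcript follow.
Malat1 end: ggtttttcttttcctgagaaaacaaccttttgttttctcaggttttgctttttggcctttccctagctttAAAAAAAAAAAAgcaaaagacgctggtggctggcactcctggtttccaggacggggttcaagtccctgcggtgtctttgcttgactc
Runs of at least 12 A also occurred in the longest transcripts of Meg3 (16) and Rian (15), whereas Mirg, Neat1, Miat, Snhg11 and Peg13 had runs of 4 to 8.

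The Malat1 promoter is shown beside that of Meg3 because it held 3 copies of the shorter CREB-binding letters TGACG without a full element. It spans chr19:5802623-5802922 on the minus strand (RefSeq, GRCm38.p6), and capitals mark the 3 copies, on either strand.
Malat1 promoter: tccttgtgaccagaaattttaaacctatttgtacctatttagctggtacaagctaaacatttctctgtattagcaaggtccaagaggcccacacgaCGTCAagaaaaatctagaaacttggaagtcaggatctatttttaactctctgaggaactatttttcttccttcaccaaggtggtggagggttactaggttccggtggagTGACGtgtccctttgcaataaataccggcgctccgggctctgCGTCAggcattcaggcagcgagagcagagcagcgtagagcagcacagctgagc
TGACG was present at least once in 20.8% of the 32851 promoters, and the share with 3 copies was not counted. It was not found in the windows of Snhg11, Miat, Rian and Mirg. The Meg3 window holds it as part of the full element. These too are matches of letters and say nothing of binding in these mice.

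Neat1 (ENSMUSG00000092274, chr19:5824708-5845478, minus strand, 20771 bases of exon) lies beside Malat1 but had another pattern. It had 4125, 3992 and 4079 normalized counts in control mice and 4827, 4303 and 4248 in p300-ifKO mice. Each p300-ifKO library exceeded each control library, with means of 4065 ± 67.5 and 4459 ± 319 (SD, n = 3). On the log2 scale p300-ifKO exceeded control by 0.13 (SE 0.11, 95% interval −0.08 to 0.35, unadjusted p 0.226 in DESeq2), and the exact two-sided permutation p was 0.1, the smallest that 3 against 3 libraries can give. Without p300-ifKO replicate 1 the log2 fold change was 0.071. Summed markers of microglia had 9826, 9745 and 8958 normalized counts in control replicates 1 to 3 and 12050, 9849 and 10408 in p300-ifKO replicates 1 to 3. The groups did not overlap, though 9826 and 9849 lay close together. Of the 8 markers, 0 were called and 0 stood at 0 counts in any library. Summed oligodendrocyte markers overlapped (107256 to 146159 and 116401 to 148799), and astrocyte markers were lower without overlap (110249 to 114074 and 98210 to 108805). Among single genes with a mean of at least 10, 4.09% were higher and 3.37% lower in p300-ifKO without overlap. No such share was computed for summed markers. The part of these cell types in the level of Neat1 was not tested.

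Of 12 genes around Malat1 and Neat1, 10 had a mean of at least 10 normalized counts, and DESeq2 called 0, with 0 at an unadjusted p under 0.05. Log2 fold changes were positive in 7 and negative in 3, with a median of 0.10, which was 0.040 without p300-ifKO replicate 1 and 0.15 without replicate 2. Dpf2, a chromatin remodelling subunit, had −0.025 (SE 0.13). The widest differences were 0.26 (SE 0.19) for Cdc42ep2 and −0.24 (SE 0.15) for Ltbp3.

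Protein partners of the nuclear RNAs were read in the same way. Among 16 paraspeckle protein genes, all with a mean of at least 10, DESeq2 called 0, with 0 at an unadjusted p under 0.05, 5 positive, 11 negative and a median log2 fold change of −0.048. Without p300-ifKO replicate 1 the median was 0.0053, and without replicate 2 −0.10. Hnrnpk, an abundant RNA-binding protein, had 0.052 (SE 0.12). Nudt21, a subunit of the 3′ end cleavage machinery that governs which Neat1 form is made, had −0.24 (SE 0.21), and Zc3h6 −0.22 (SE 0.26). Among 17 genes of nuclear speckles and splicing, DESeq2 called 0, with 0 at an unadjusted p under 0.05, 2 positive, 15 negative and a median of −0.14. Without p300-ifKO replicate 1 that median was −0.027, without replicate 2 −0.27, and with length and GC offsets −0.017. Srrm2, a scaffold of speckles, had 20977 ± 3059 normalized counts in controls and 16020 ± 8509 in p300-ifKO mice (SD, n = 3).

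Miat (ENSMUSG00000097767, chr5:112213228-112229395, minus strand, 9293 bases of exon) was the most even lncRNA among control mice. Its values were 22590, 22439 and 22700 normalized counts in controls and 16087, 25264 and 19238 in p300-ifKO mice. The control coefficient of variation was 0.582%, lower in 0.769% of the 8195 genes with a mean of at least 500, whereas that of p300-ifKO mice was 23.1%. The error from counting alone was 0.673% among controls, of like size to that control coefficient. The p300-ifKO libraries lay on either side of the controls, 2 below and 1 above. The log2 fold change was −0.16 (SE 0.18, 95% interval −0.51 to 0.19, unadjusted p 0.370 in DESeq2). It was −0.022 without p300-ifKO replicate 1 and −0.35 without replicate 2, where the adjusted p in DESeq2 was 0.0561. Exons of other genes share 30.4% of the Miat exon bases, 2260 of them with Gm26953 on the opposite strand, which received 60 counts in all. No strand setting is stated for the counting, so reads of the pair cannot be told apart there.

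Snhg11 (ENSMUSG00000044349, chr2:158375638-158386145, plus strand, 8527 bases of exon, typed as protein-coding in the annotation) is transcribed mainly in neurons. It had 75020, 70360 and 72669 normalized counts in controls and 59360, 77717 and 67115 in p300-ifKO mice. Here too replicates 1 and 3 of p300-ifKO lay below all controls and replicate 2 above them. The fold change on the log2 scale was −0.095 (SE 0.14, 95% interval −0.36 to 0.17, unadjusted p 0.489 in DESeq2), and was −0.0067 without p300-ifKO replicate 1 and −0.20 without replicate 2.

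Peg13 (ENSMUSG00000106847, chr15:72805600-72810324, minus strand, 4725 bases of a single exon) lies within an intron of Trappc9, so that reads of unspliced Trappc9 RNA in that stretch would count as Peg13. Normalized counts were 6614, 6330 and 6575 in controls and 5245, 6848 and 5783 in p300-ifKO mice. The same order of libraries was seen as for Snhg11, the replicates 1 and 3 of p300-ifKO below all controls. The log2 fold change was −0.13 (SE 0.14, 95% interval −0.40 to 0.14, unadjusted p 0.358 in DESeq2), against −0.044 without p300-ifKO replicate 1 and −0.24 without replicate 2.

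Genes of the Peg13-Kcnk9 domain were 8, all measured, with 0 called by DESeq2, 0 at an unadjusted p under 0.05, 5 positive, 3 negative and a median of 0.013, which was 0.11 with length and GC offsets. Kcnk9, a leak potassium channel expressed from the maternal copy in brain, had 3378 ± 533 normalized counts in controls and 2635 ± 662 in p300-ifKO mice (SD, n = 3), a log2 fold change of −0.36 (SE 0.21). Ago2, the slicing protein of RNA interference, had −0.42 (SE 0.25), Chrac1, a small histone-fold protein, 0.49 (SE 0.27) and Ptk2, a focal adhesion kinase, 0.00087 (SE 0.10). Trappc9, the host gene of Peg13, had 0.026 (SE 0.12).

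**Figure D4:**
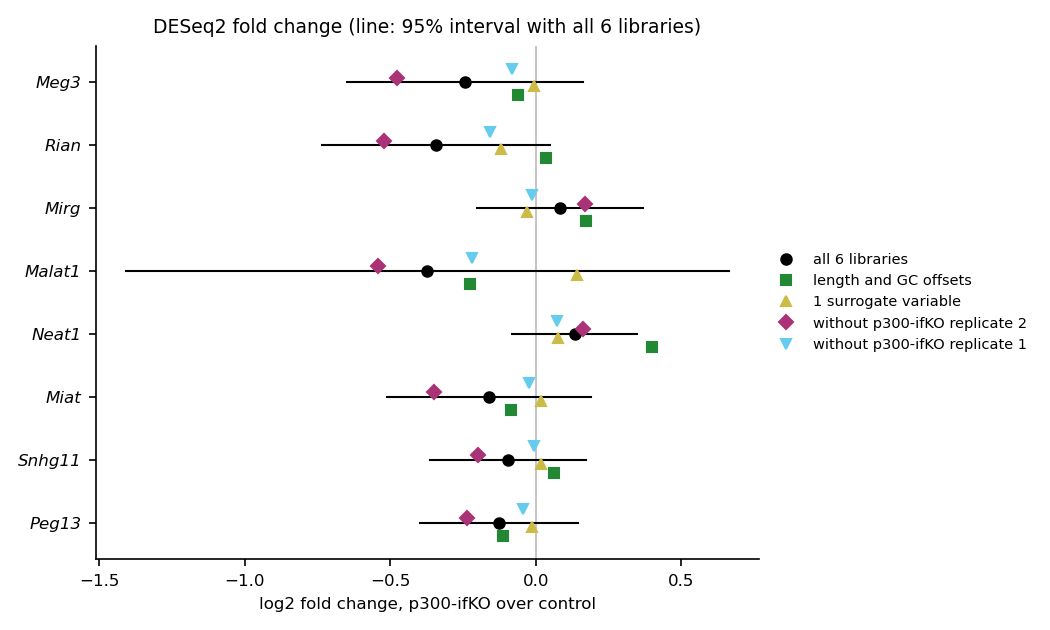
DESeq2 log2 fold change of p300-ifKO over control for the 8 lncRNAs with all 6 libraries (circle, line for the 95% interval) and under 4 other settings. All 8 intervals include 0, and leaving out p300-ifKO replicate 2 moved Meg3 from −0.24 to −0.48 and Rian from −0.34 to −0.52.

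Spread between libraries was then set against exonic length. For 17054 genes with a mean of at least 10 normalized counts, the log2 deviation of a library from the mean of the 6 was related to exonic length. Spearman's rho across genes, which are not independent replicates, was 0.214, 0.195 and 0.435 in control replicates 1 to 3 and −0.496, 0.437 and −0.230 in p300-ifKO replicates 1 to 3. Genes with long exons were thus low in p300-ifKO replicate 1. That library was the lowest of the 6 for 87.9% of the 1180 genes with at least 10 kb of exon and a mean of at least 500, for 63.5% of those with 5 to 10 kb and for 0.849% of those under 2 kb.

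Among the members, p300-ifKO replicate 1 was the lowest library for Meg3, Rian, Malat1, Miat, Snhg11 and Peg13. It was the highest for Mirg and Neat1. With 20771 bases of exon, Neat1 was in the class of at least 10 kb, of which 4.66% of genes were highest in that library. Mirg was in the class of 5 to 10 kb, of which 20.1% were. For 7 members the coefficient of variation was larger in p300-ifKO than in control mice, as for 82.1% of genes with a mean of at least 500, and Malat1 was the exception.

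**Figure D5:**
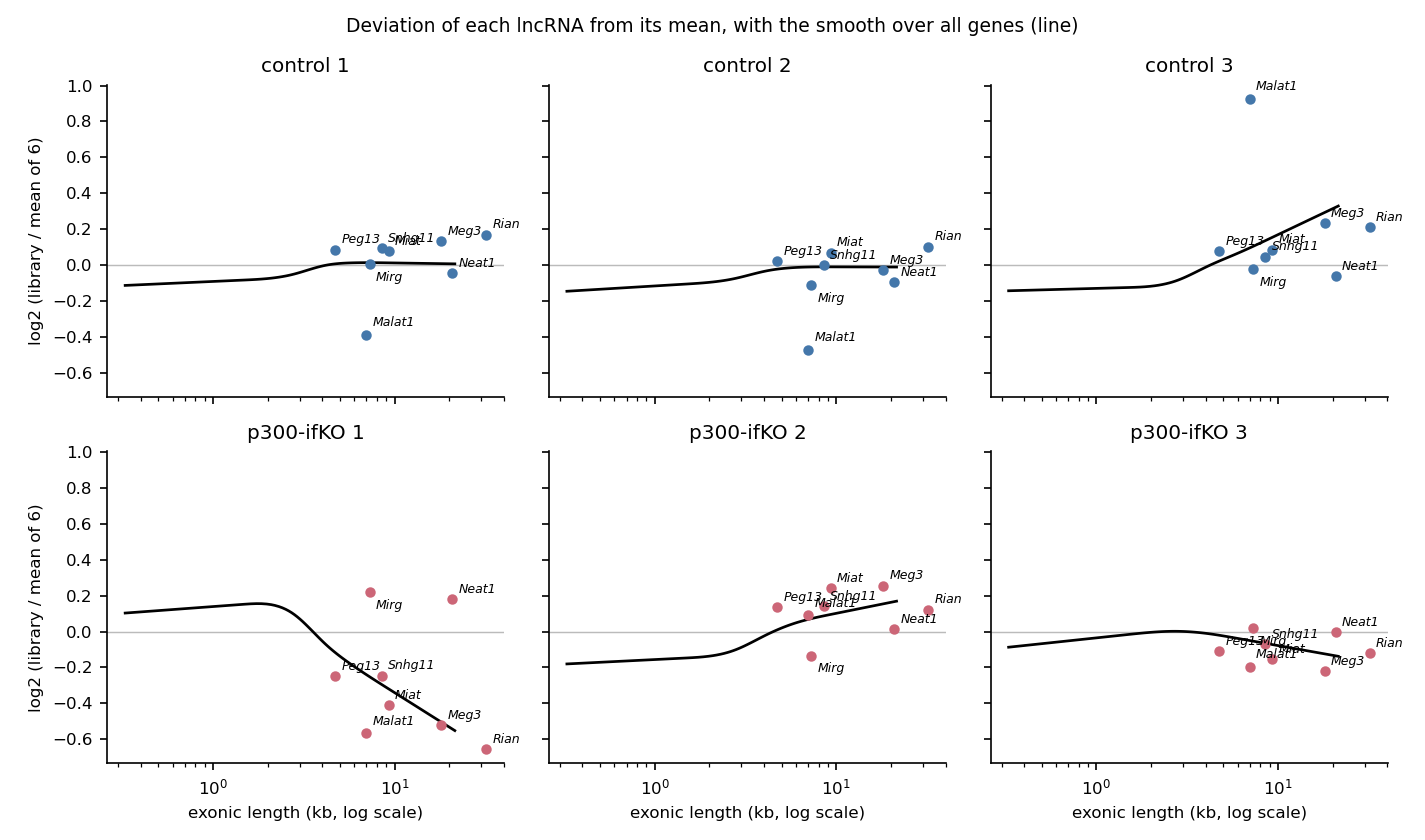
Log2 deviation from the mean of the 6 libraries against exonic length (kb, log axis), with 1 panel per library, points for the 8 lncRNAs and a line for the smooth over all genes. In p300-ifKO replicate 1 the line falls with length and Meg3 (−0.52), Miat (−0.41) and Snhg11 (−0.25) lie near it, whereas Neat1 (0.18) and Mirg (0.22) lie above it.

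When the smooth of length was subtracted in each library, the members parted into groups. For Meg3 the range of log2 deviations over the 6 libraries went from 0.78 to 0.22, for Rian from 0.87 to 0.28 and for Miat from 0.65 to 0.24. Snhg11 went from 0.39 to 0.17 and Peg13 from 0.38 to 0.26. The range thus became smaller for 6 members, Malat1 included, and a smaller range was found for 64.7% of genes with a mean of at least 500, whose median went from 0.46 to 0.37.

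Malat1 kept most of its range, from 1.49 to 1.29, with control replicate 3 still 0.83 above its mean on the log2 scale. Mirg and Neat1 went the other way, from 0.35 to 0.68 and from 0.27 to 1.11. After the fit, Neat1 was at −0.05, −0.08 and −0.39 in controls and at 0.72, −0.15 and 0.13 in p300-ifKO libraries on the log2 scale, and the groups overlapped. In DESeq2 with length and GC offsets per library, the log2 fold change of Neat1 was 0.40 (SE 0.18, unadjusted p 0.0298) and was not called. Rian lies beyond the lengths that set the smooth, and its exonic length was 31981 bases in the deposited table and 18234 in GENCODE M21. With the shorter length its level was 733 ± 144 (SD, n = 6) normalized counts per kb.

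With the same offsets Meg3 had a log2 fold change of −0.061 (SE 0.11) and Rian of 0.033 (SE 0.14), and DESeq2 called 0 of the 8 members. With 1 surrogate variable as covariate the values were −0.0047 (SE 0.078) for Meg3 and −0.12 (SE 0.080) for Rian, again with 0 called. The fit without p300-ifKO replicate 2, in which Meg3 and Rian were called, had no such offsets or covariate. The part of the length trend in those calls was not tested.

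Genes most alike in pattern over the 6 libraries were sought among 12245 genes with a mean of at least 100, by the root mean square (RMS) difference of log2 deviations. This difference is not scaled by the spread of a gene between libraries, so its size does not rank the members by closeness of match. The nearest gene to Peg13 was Ncan, a brain matrix proteoglycan, at 0.0069, and to Snhg11 Thoc1, an mRNA export factor, at 0.011. The nearest to Miat was Nup214, a nuclear pore protein, at 0.014, to Neat1 Zfp27 at 0.021 and to Mirg Fads3 at 0.024. Meg3 was closest to Nemp1 at 0.025 and Rian to Sox1ot at 0.030. For Malat1, the member that varied most, the nearest was Tcp11l1 at 0.13. Tcp11l1 was likewise highest in control replicate 3, with 344 normalized counts against 147 to 209 in the other libraries. Between members the smallest difference was that of Snhg11 and Peg13, at 0.023.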

How the data were processed

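The data were 6 hippocampal libraries of single-end 50 bp reads, grouped by sample title. The deposited values were raw counts of reads per gene: the authors trimmed adapters (Trim Galore 0.6.4), aligned with STAR (2.6.1) to GRCm38, filtered on mapping quality and counted exons of Ensembl genes with Rsubread. That filter removes reads with several matches, and a strand setting is not stated. Symbols, coordinates and types came from GENCODE M21 (55230 of 55471 genes matched, 99.57%). Promoter and miRNA sequences came from RefSeq (GRCm38.p6), where 6 members had a promoter and Neat1 and Peg13 had none. The members and lists were chosen with earlier results of these data known.

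p300-ifKO was compared with control over the whole table by the two-sided Wald test of DESeq2 (1.42.0, R 4.3.3) with default filters, no covariate and Benjamini-Hochberg adjustment at 0.05. Alternatives were edgeR (4.0.16) quasi-likelihood, limma-voom (limma 3.58.1), TMM factors, other filters, a threshold of 0.1, a replicate block, length and GC offsets (mgcv 1.9.3), 1 surrogate variable (sva 3.50.0) and leaving out each library. On simulated data drawn from these libraries, with 200 of 32774 genes changed, the share recovered by DESeq2 was 72% for 2-fold changes (42 false calls) and 26% for 1.5-fold changes (12 false calls). For edgeR it was 62% (9 false calls) and 0% (0 false calls). Each gene was drawn independently from its mean, dispersion and the size factors, so the simulated libraries held no length trend. These shares thus do not give the share that would be recovered in the real libraries. Named list genes were those called, the 2 with the largest fold change and the 2 most abundant of each list, with a mean of at least 10 normalized counts, and for likeness the nearest gene to each member. Dlk1, Dio3, Rtl1, Trappc9, Wars and Wdr25 were named outside this rule, and 2 genes that it names are not reported here. All per-sample columns were used (0 left out). The least counted member, Mirg, had 704 to 867 counts per library. Among controls the counting error was 3.63% and the coefficient of variation 4.19% for Mirg, 1.58% and 1.66% for Neat1 and 0.673% and 0.582% for Miat, so that both were of like size for these 3 members.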

Additional observations from a re-analysis of the deposited data

How the results depend on the processing

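Of the 8 members, DESeq2 called 0 with all libraries, and 0 were called by any other tool, filter, threshold, offset, surrogate variable or block tried. Leaving out 1 library gave 0 to 2 called members, 0 to 10 called genes of the 7 lists and 2 to 926 genes in all, the upper values without p300-ifKO replicate 2. The fold change of Ep300 then ranged from −1.36 to −0.66, and was called without that library (adjusted p 0.000375) and with 1 surrogate variable (−0.48, adjusted p 0.00127, both DESeq2). With length and GC offsets the log2 fold change of Ep300 was −0.83 and was not called. Directions reversed for Rian (0.033) and Snhg11 (0.062) with length and GC offsets, for Mirg (−0.029), Malat1 (0.14), Miat (0.017) and Snhg11 (0.018) with 1 surrogate variable, for Malat1 (0.23) without control replicate 3 and for Mirg (−0.014) without p300-ifKO replicate 1. Leaving out 1 library, Malat1 ranged from −0.61 to 0.23 and Mirg from −0.014 to 0.17. The cause was not tested. Over 18 alternatives Meg3 ranged from −0.48 to −0.0047, Neat1 from 0.071 to 0.40 and Peg13 from −0.24 to −0.013.

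With a replicate block DESeq2 called 4 genes and edgeR 1, against 2 without, the latter fit added after seeing the data, and 0 members. Same-numbered libraries deviated from their group means with correlations of 0.27, −0.28 and 0.13 over 17071 genes. The length trend was not removed from these deviations, so they cannot settle whether mice were paired. The main fit did not take the numbers as pairs. The level of Miat per kb was 3308 over exon bases not shared with other genes, and its range after a length and GC fit was 0.41. Each library is 1 mouse. The p-values set the group difference against the spread between 3 mice a group, which DESeq2 and edgeR moderate across genes.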

Other observations

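Other lncRNAs of the brain and snoRNA host genes were read as a list of 24, of which 21 were in the table and 20 had a mean of at least 10 normalized counts. DESeq2 called 0, with 1 at an unadjusted p under 0.05, 9 positive, 11 negative and a median log2 fold change of −0.0084. That median was 0.21 with length and GC offsets. Leaving out p300-ifKO replicate 2 gave 0.11, leaving out control replicate 1 also 0.11, and leaving out control replicate 3 gave 0.078. Without p300-ifKO replicate 1 it was −0.018, and without replicate 3 −0.033. Snhg8, a short snoRNA host, had 256 ± 48.5 normalized counts in controls and 388 ± 151 in p300-ifKO mice (SD, n = 3), a log2 fold change of 0.60 (SE 0.29). Epb41l4aos had 0.58 (SE 0.31), Gas5, a growth arrest RNA and snoRNA host, 0.28 (SE 0.22) and Tug1 −0.16 (SE 0.15). Of 26 other imprinted genes, 24 had that mean, and 0 were called by DESeq2, with 1 at an unadjusted p under 0.05, 9 positive, 15 negative and a median of −0.087, which was −0.016 with length and GC offsets. Peg10, a retrotransposon-derived gene, had 574 ± 209 normalized counts in controls and 324 ± 87.4 in p300-ifKO mice (SD, n = 3), a log2 fold change of −0.82 (SE 0.31), and Plagl1, a zinc finger factor, had −0.70 (SE 0.58). Snrpn had 0.23 (SE 0.19) and Nap1l5 −0.0061 (SE 0.13).

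Without p300-ifKO replicate 2, where DESeq2 called 7.9% of genes tested, 10 of the 217 genes of the 7 lists passed. Of these 217 genes, 107 had a mean of at least 10 normalized counts. Lower were Kcnk9, Ago2, Srrm2, Rbfox1, Peg10 and Herc3, and higher were Chrac1, Snhg6, Snhg8 and Snhg12. The log2 fold change of Srrm2 was −0.88 (SE 0.20, adjusted p 0.00573 in DESeq2) and that of Snhg8 0.85 (SE 0.24, adjusted p 0.0244 in DESeq2). Spearman's rho with exonic length was 0.214, 0.195 and 0.435 in the control libraries, against −0.496 and −0.230 in p300-ifKO replicates 1 and 3. Group and length trend thus cannot be told apart in this fit, and the part of that trend in these calls was not tested. Genes named here without values in the first comparison were chosen after the calls were seen.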
